A study of Mus musculus with 6 samples.

Results

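The Notch receptors, their ligands and the best known genes that they switch on were examined in cultured bone marrow mesenchymal stem cells (BM MSCs). The 10 members were the receptors *Notch1*, *Notch2*, *Notch3* and *Notch4*, the ligands *Dll1*, *Dll4*, *Jag1* and *Jag2*, and the targets *Hey1* and *Hes1*. They were found by gene name among the 56980 genes of the deposited table, each name matched 1 row, and all 10 had enough counts to be tested. The question was whether the targets moved together with the receptors and ligands.

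Notch receptors are single-pass membrane proteins that are bound by Delta-like (Dll) or Jagged (Jag) ligands on a neighbouring cell. Ligand binding exposes the receptor to an ADAM protease and then to γ-secretase, which frees the intracellular domain to enter the nucleus, where it joins the DNA-binding protein RBPJ and Mastermind proteins and switches on genes such as the *Hes* and *Hey* repressors. In marrow, the pathway is known for arterial and sinusoidal vessel identity, for vascular mural cells, for lymphocyte fate choices and for holding back osteoblast differentiation of stromal progenitors.

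The cells came from female mice that underwent bilateral ovariectomy (OVX) at 8 weeks of age, received antibiotics to deplete their own gut microbiota, and then received fecal microbiota transplantation (FMT) by gavage for 8 weeks. Donors of the TranspCtrl group were sedentary OVX mice, and donors of the TranspExer group were OVX mice trained on a treadmill for 8 weeks. Marrow flushed from femurs and tibias was cultured for 7 days with repeated washes and no described sorting step, no strain is given in the sources used here, and all recipients shared OVX, antibiotics and gavage. RNA-Seq was done on 3 samples per group, with total counts of 17647682 to 21319228 per sample, and 3 counts, the floor used here, equalled 0.139 to 0.174 CPM (counts scaled to a common library size). DEGs were genes with an adjusted p-value under 0.05 and a fold change of at least 2. CPM was scaled with the TMM factors of edgeR, which correct library sizes for composition. The labels do not say whether the 3 samples came from separate mice, so the p-values measure the spread between these samples, which may be technical.

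Markers of marrow stroma were present in all samples, with a summed level over 10 genes of 11700 to 19500 CPM in TranspCtrl and 12700 to 13900 CPM in TranspExer, and 2 of these genes were downregulated DEGs and none an upregulated DEG. At an adjusted p-value under 0.05, 6 of the 10 stromal markers were lower and 1 higher, with a median log2 fold change of -0.46. Other cell types were also present. Macrophage markers (8 genes) summed to 3380 to 3580 CPM in TranspCtrl and 3760 to 3920 CPM in TranspExer, with no DEG by edgeR (2 genes higher and 1 lower at an unadjusted p-value under 0.05). B and plasma cell markers (7 genes) summed to 1530 to 1920 CPM and 360 to 393 CPM, with 6 downregulated DEGs, and T cell markers (5 genes) to 16.9 to 20.7 CPM and 12.3 to 14.7 CPM, with 1 downregulated DEG. Neutrophil lineage markers (7 genes) summed to 1870 to 2820 CPM and 3420 to 3690 CPM, with 2 upregulated DEGs. At an adjusted p-value under 0.05, 2 of the 7 were higher and 1 lower, and their median log2 fold change was 0.07. Megakaryocyte markers (5 genes) summed to 247 to 311 CPM and 437 to 473 CPM, with 3 upregulated DEGs. In bulk samples such as these, fewer cells of a type and less RNA per cell cannot be told apart.

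In all 10 Notch members the lowest TranspExer sample exceeded the highest TranspCtrl sample in CPM, a pattern that 27.2% of all 15190 tested genes showed in that direction. In the quasi-likelihood test of edgeR, with p-values adjusted over all tested genes (Benjamini-Hochberg), 9 of the 10 members rose at an adjusted p-value under 0.05, against 16.6% of all tested genes. Of the 9, *Jag2* did not pass with DESeq2 (adjusted p = 0.0939), and *Notch1* did not without TranspExer replicate 3 (edgeR adjusted p = 0.0543). The 6 members *Notch3*, *Notch4*, *Dll1*, *Dll4*, *Jag1* and *Hey1* also passed the fold change of 2 and were upregulated DEGs, against 3.5% of all tested genes. No member was a downregulated DEG, against 5.28% of all tested genes, and the count was also 0 at an unadjusted p-value under 0.05 in edgeR and 0 by DESeq2. The median log2 fold change was 1.22 over the members and -0.02 over all tested genes.

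**Figure D1:**
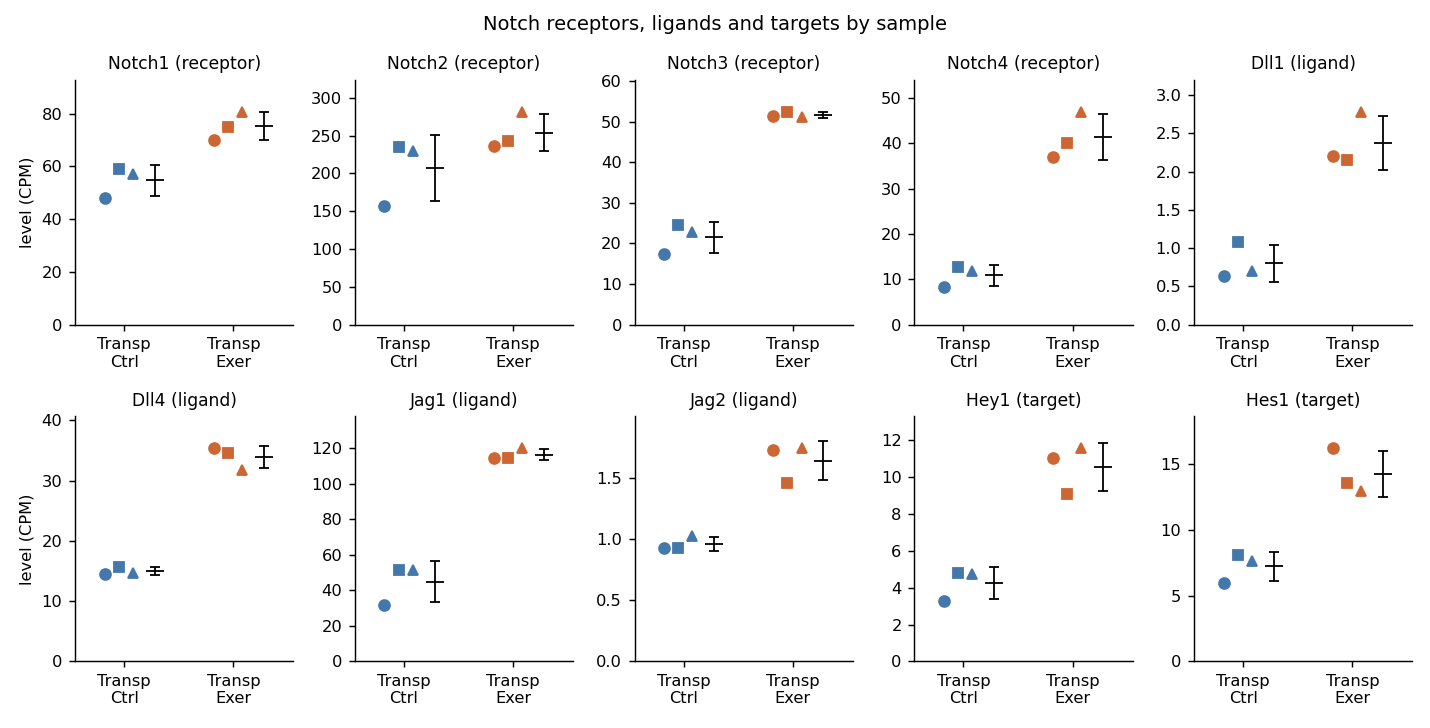
Each panel plots the level of 1 gene in CPM (linear axis from 0) in the 3 TranspCtrl and 3 TranspExer samples, with circles, squares and triangles for replicates 1, 2 and 3 and a black bar for the mean and SD. The groups do not overlap in any panel, and the circle of TranspCtrl is the lowest TranspCtrl point for 9 of the 10 genes.

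Among the receptors, *Notch4* and *Notch3* carried the largest differences, *Notch1* a small one, and *Notch2*, the most abundant, did not pass the test. *Notch4* (ENSMUSG00000015468, chr17:34564268-34588503 on mm10, plus strand), the receptor typical of endothelium, had 8.30, 12.6 and 11.9 CPM in TranspCtrl replicates 1, 2 and 3 and 37.0, 40.0 and 47.0 CPM in TranspExer replicates 1, 2 and 3. Its lowest TranspExer value was thus well above its highest TranspCtrl value. The mean was 10.9 ± 2.32 CPM in TranspCtrl and 41.4 ± 5.11 CPM in TranspExer (SD, n = 3 each), and the gene rose 3.78-fold, or by 1.92 ± 0.17 on the log2 scale (log2 fold change ± standard error here and in what follows, edgeR adjusted p = 0.000201). *Notch4* was the only member to pass when the fold change of 2 was itself tested in the edgeR model (adjusted p = 0.00469).

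*Notch3* (ENSMUSG00000038146, chr17:32120820-32166852, minus strand), the receptor typical of pericytes and vascular smooth muscle, had 17.3, 24.6 and 22.8 CPM in TranspCtrl and 51.3, 52.4 and 51.2 CPM in TranspExer. The TranspExer samples were nearly level, with a coefficient of variation of 1.35% against 17.7% in TranspCtrl. *Notch3* rose by 1.26 ± 0.13 on the log2 scale (edgeR adjusted p = 0.000375). Promoter bases of *Notch3*, *Notch4* and the ligand *Dll4* follow, from the windows before their RefSeq starts on GRCm38.p6, as examples: the 2 receptors that were DEGs and the ligand with the lowest adjusted p-value. *Jag1* and *Dll1*, whose windows also held the letters described here, are not printed. The windows of *Notch3* and *Dll4* are whole, with 250 bases each. That of *Notch4* is given only up to where its gene begins in GENCODE M21 (223 bases), although all 250 were searched. Of the windows searched but not printed, those of *Notch1* and *Jag2* and 1 of *Dll1* lay wholly inside the gene as placed by GENCODE M21. Those of *Jag1* and *Notch2* lay inside it in part. Capitals mark CACGNG on either strand, letters recognised by HES and HEY repressors.
Notch3 promoter, chr17:32166891-32167140, minus strand: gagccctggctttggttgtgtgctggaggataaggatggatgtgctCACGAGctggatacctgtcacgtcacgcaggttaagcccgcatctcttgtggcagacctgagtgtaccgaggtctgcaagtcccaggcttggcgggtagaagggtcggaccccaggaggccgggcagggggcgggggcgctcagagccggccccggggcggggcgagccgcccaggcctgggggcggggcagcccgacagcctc
Notch4 promoter, chr17:34564045-34564267, plus strand: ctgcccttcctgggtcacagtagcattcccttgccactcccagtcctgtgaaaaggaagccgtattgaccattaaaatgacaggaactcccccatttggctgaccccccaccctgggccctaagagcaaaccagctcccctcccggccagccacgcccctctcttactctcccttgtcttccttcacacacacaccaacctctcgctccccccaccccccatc
Dll4 promoter, chr2:119325534-119325783, plus strand: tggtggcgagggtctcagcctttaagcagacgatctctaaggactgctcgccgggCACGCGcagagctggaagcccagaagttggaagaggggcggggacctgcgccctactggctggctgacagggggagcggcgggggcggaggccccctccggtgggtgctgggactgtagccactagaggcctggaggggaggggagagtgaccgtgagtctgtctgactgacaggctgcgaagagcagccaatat

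Promoter sequences were matched for 8 of the 10 members, all of them receptors or ligands. None was available for the targets *Hey1* and *Hes1*, which were therefore not searched. *Dll1* had 2 start sites, which gave 9 windows of the 250 bases before a start. The RBPJ core letters TGGGAA were on neither strand in any of the 9 windows, where 21.6% of all 32851 mouse windows of this length held them. The longer form GTGGGAA, which contains TGGGAA, was held by 5.42% of all windows. CACGNG, chosen after values were seen, was in 6 of the 9 windows, both of *Dll1* among them, and in 23.5% of all windows. The shares over all windows are not matched for base content, and the member windows held 56.0% to 87.2% G and C. No enrichment or lack of these letters is therefore read from them. In *Dll4* it lay at positions -195 to -190 from the start, and in *Notch3* at positions -204 to -199 from it, whereas the windows of *Notch4*, *Notch1* and *Jag2* held none. These are matches of letters and show no binding.

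*Notch1* (ENSMUSG00000026923, chr2:26457903-26516663, minus strand), the receptor best known from lymphoid and endothelial cells, had 48.1, 59.0 and 57.1 CPM in TranspCtrl and 70.1, 74.7 and 80.7 CPM in TranspExer. The groups were separate, with a rise of 1.37-fold, or 0.46 ± 0.10 on the log2 scale (edgeR adjusted p = 0.0115). The adjusted p-value was 0.0543 without TranspExer replicate 3 and ranged from 0.000693 to 0.0543 over the 13 other settings that tested for any difference, and it was 1 when the fold of 2 was tested in the model. A non-coding gene, 0610009E02Rik, overlaps *Notch1* on the opposite strand with a mean count of 259.7 beside 1269 for *Notch1*, and how reads of overlapping genes were assigned is not given in the sources used here.

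*Notch2* (ENSMUSG00000027878, chr3:98013527-98150361, plus strand), the receptor with roles in marginal zone B cells and in the skeleton, had 157, 235 and 229 CPM in TranspCtrl and 236 to 282 CPM in TranspExer. The groups met almost edge to edge, since TranspCtrl replicate 2 had 235.3 CPM and TranspExer replicate 1 had 236.5 CPM. Its log2 fold change of 0.29 had a 95% interval from -0.07 to 0.65 (adjusted p = 0.186 from edgeR), and it was 0.13 without TranspCtrl replicate 1.

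All 4 ligands were higher in the TranspExer group, and 3 were upregulated DEGs. *Jag1* (ENSMUSG00000027276, chr2:137081456-137116644, minus strand), a ligand of stromal, endothelial and smooth muscle cells, had 31.9, 51.5 and 51.4 CPM in TranspCtrl and 114, 114 and 120 CPM in TranspExer. TranspCtrl replicate 1 lay below its group, while the TranspExer samples were close together. The mean was 45.0 ± 11.3 CPM in TranspCtrl and 116 ± 3.17 CPM in TranspExer (SD, n = 3 each), and *Jag1* rose by 1.37 ± 0.17 on the log2 scale (edgeR adjusted p = 0.000996).

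*Dll4* (ENSMUSG00000027314, chr2:119325784-119335962, plus strand), the ligand of endothelial tip and arterial cells, had 14.5, 15.7 and 14.6 CPM in TranspCtrl and 35.4, 34.5 and 31.8 CPM in TranspExer. It was the member with the least spread in TranspCtrl, with a coefficient of variation of 4.49%, and TranspCtrl replicate 1 hardly stood apart. *Dll4* rose by 1.18 ± 0.09 on the log2 scale (edgeR adjusted p = 0.000105).

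*Dll1* (ENSMUSG00000014773, chr17:15367354-15376872, minus strand), the ligand that drives marginal zone B cell formation, was scarce. It had 13, 21 and 15 counts in TranspCtrl and 42, 37 and 56 counts in TranspExer, or 0.635 to 1.08 CPM and 2.15 to 2.78 CPM. The rise of 1.57 on the log2 scale had the widest standard error of the members (0.28, edgeR adjusted p = 0.00479). *Jag2* (ENSMUSG00000002799, chr12:112907819-112929776, minus strand), a ligand with a role in T cell development, was as scarce, with 19, 18 and 22 counts in TranspCtrl and 33, 25 and 35 counts in TranspExer. Its log2 fold change of 0.77 (95% interval 0.24 to 1.30, edgeR adjusted p = 0.036) was the least secure result, since the adjusted p-value was above 0.05 in 11 of the 12 other settings that tested for any difference, with a range of 0.0362 to 0.117, and was 1 when the fold of 2 was tested in the model.

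Both targets rose. *Hey1* (ENSMUSG00000040289, chr3:8663359-8667256, minus strand), a basic helix-loop-helix repressor switched on by Notch in vessels and osteoblasts, had 3.27, 4.83 and 4.74 CPM in TranspCtrl and 11.04, 9.07 and 11.6 CPM in TranspExer. The groups were more than 4 CPM apart at their nearest samples. The mean was 4.28 ± 0.874 CPM in TranspCtrl and 10.6 ± 1.32 CPM in TranspExer (SD, n = 3 each), and *Hey1* rose by 1.30 ± 0.18 on the log2 scale (edgeR adjusted p = 0.00162).

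*Hes1* (ENSMUSG00000022528, chr16:30064384-30067796, plus strand), the most widely used Notch target and also a basic helix-loop-helix repressor, had 6.01, 8.11 and 7.63 CPM in TranspCtrl and 16.2, 13.6 and 12.96 CPM in TranspExer. TranspExer replicate 1 was the highest sample of *Hes1*, whereas it was the lowest TranspExer sample of *Notch4*. *Hes1* rose by 0.98 ± 0.15 on the log2 scale (95% interval 0.63 to 1.32, edgeR adjusted p = 0.00256), just short of the fold change of 2. It passed that fold when TranspCtrl replicate 2 or 3 or TranspExer replicate 2 or 3 was left out, with log2 fold changes of 1.07, 1.01, 1 and 1.03 and adjusted p-values of 0.00515, 0.00938, 0.0129 and 0.0113.

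**Figure D2:**
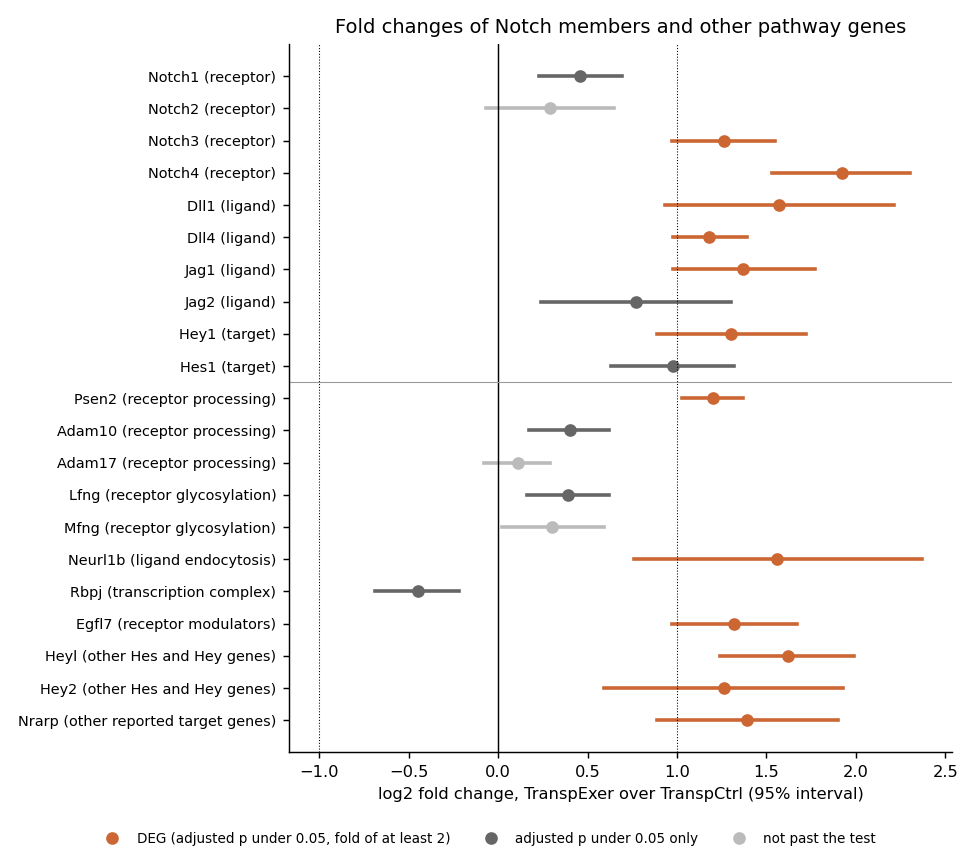
Points are log2 fold changes of TranspExer over TranspCtrl from edgeR with 95% intervals, and dotted lines mark a fold of 2 in either direction. The 10 members are above the grey line, and some of the 62 other tested pathway genes (DEGs and genes preset for naming) are below it. *Notch4* (1.92) lies farthest to the right, the interval of *Notch2* spans 0, and *Rbpj* (-0.45) is the one gene plotted to the left of 0, although 16 of the 62 were lower, 8 of them at the adjusted threshold.

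To set the targets beside the receptors and ligands, the log2 CPM of each target minus the mean log2 CPM of the 4 receptors or of the 4 ligands was taken in each sample. These differences are not per length, so only their change between groups is read, and no p-value is given because the members were chosen with results known. The mean of the receptors was 5.02, 5.52 and 5.45 in TranspCtrl and 6.23, 6.30 and 6.43 in TranspExer, higher by 0.99 on the log2 scale. The mean of the ligands was 2.12, 2.49 and 2.35 in TranspCtrl and 3.51, 3.44 and 3.58 in TranspExer, higher by 1.19. Both targets therefore moved in the direction of both classes.

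*Hey1* minus receptors was -3.26, -3.21 and -3.17 in TranspCtrl and -2.75, -3.10 and -2.88 in TranspExer, a shift of 0.30 without overlap. *Hey1* minus ligands shifted by 0.10, and the groups overlapped. *Hes1* minus receptors was -2.41, -2.48 and -2.50 in TranspCtrl and -2.20, -2.52 and -2.72 in TranspExer, a shift of -0.02 that was smaller than the spread of samples. *Hes1* minus ligands shifted by -0.22, with overlapping groups at a prior count of 2 and no overlap at 0.5.

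**Figure D3:**
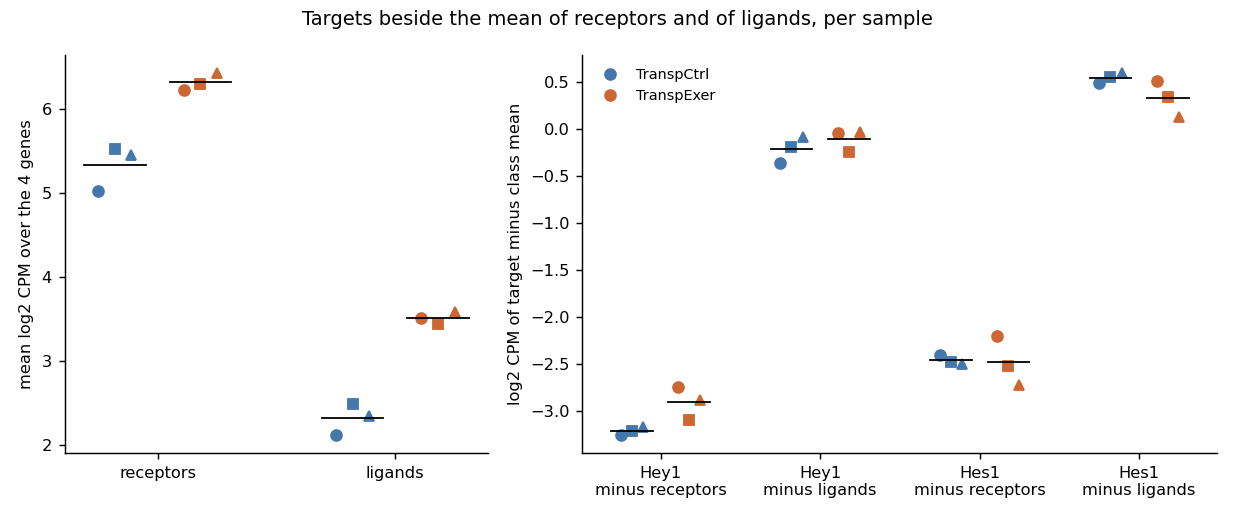
The left panel plots the mean log2 CPM of the 4 receptors and of the 4 ligands in each sample, and the right panel the log2 CPM of *Hey1* and *Hes1* minus those means, with circles, squares and triangles for replicates 1, 2 and 3 and lines for group means. Receptors and ligands are about 1 log2 unit higher in TranspExer, while the differences in the right panel shift by 0.30 at most.

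Dividing CPM by the gene length in kilobases (RPKM) allowed levels to be compared between genes. In TranspCtrl the order was *Notch2* (19.7 ± 4.16 RPKM), *Jag1* (8.01 ± 2.02), *Notch1* (5.77 ± 0.616), *Hes1* (4.94 ± 0.751), *Dll4* (3.99 ± 0.18), *Notch3* (2.69 ± 0.475), *Hey1* (1.77 ± 0.361), *Notch4* (1.66 ± 0.352), *Dll1* (0.224 ± 0.067) and *Jag2* (0.188 ± 0.011) (SD, n = 3). Neighbours from *Jag1* down to *Dll4*, the pair *Hey1* and *Notch4*, and the pair *Dll1* and *Jag2* overlapped between samples. In TranspExer the order was *Notch2* (24.2 ± 2.32 RPKM), *Jag1* (20.7 ± 0.566), *Hes1* (9.72 ± 1.18), *Dll4* (9.05 ± 0.499), *Notch1* (7.92 ± 0.562), *Notch3* (6.44 ± 0.0871), *Notch4* (6.28 ± 0.775), *Hey1* (4.36 ± 0.545), *Dll1* (0.664 ± 0.0982) and *Jag2* (0.321 ± 0.0316) (SD, n = 3). There the neighbours *Hes1* and *Dll4*, *Dll4* and *Notch1*, and *Notch3* and *Notch4* overlapped.

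The make-up of the receptor pool differed between groups. Of the summed receptor RPKM, *Notch4* made up 5.37%, 5.70% and 5.56% in TranspCtrl and 13.4%, 13.9% and 14.6% in TranspExer. *Notch3* made up 9.03% ± 0.246 and 14.4% ± 1.19 (SD, n = 3 each). The share of *Notch2* was 65.9% ± 1.83 in TranspCtrl and 53.9% ± 0.950 in TranspExer (SD, n = 3 each), and that of *Notch1* 19.6% and 17.7%, and none of these 4 shares overlapped between groups. In the ligand pool, *Jag1* was at 63.9% ± 5.76 and 67.4% ± 1.45 and *Dll4* at 32.8% ± 5.49 and 29.4% ± 1.77 (SD, n = 3 each), and both shares overlapped between groups. The share of *Dll1*, 1.80% ± 0.362 and 2.16% ± 0.304, overlapped as well. *Jag2* made up 1.83%, 1.31% and 1.49% in TranspCtrl and 1.10%, 0.933% and 1.10% in TranspExer, lower in TranspExer without overlap, and it was above *Dll1* in TranspCtrl replicates 1 and 3 and below it in the other samples.

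**Figure D4:**
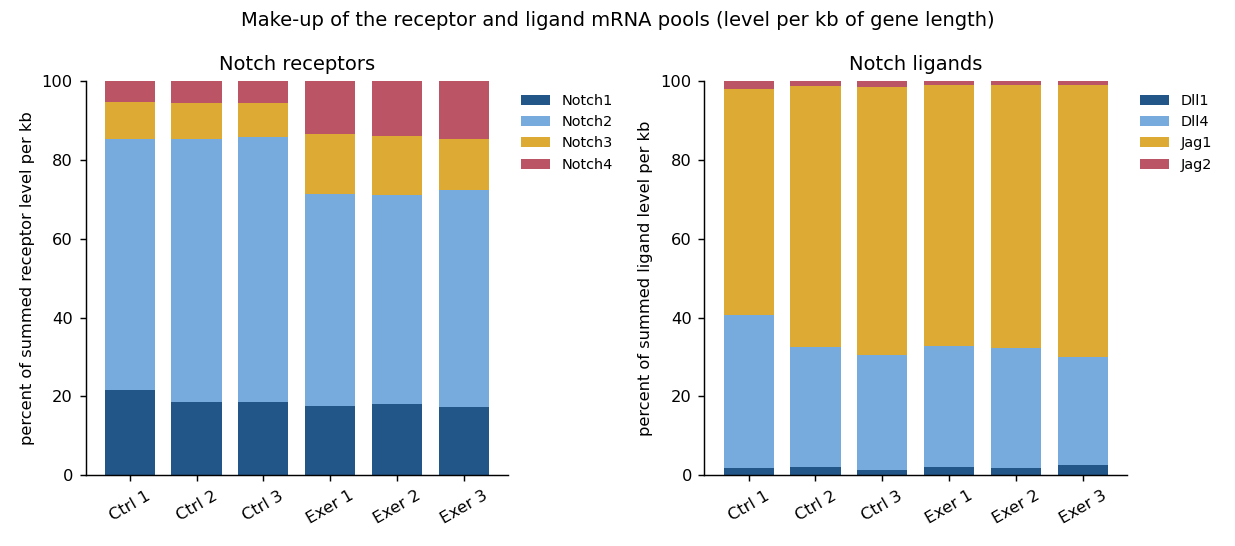
Stacked bars give, for each of the 6 samples, the percent of the summed level per kilobase of the 4 receptors (left) and of the 4 ligands (right) that each gene makes up. The red segment of *Notch4* is 5.37% to 5.70% of the receptor pool in TranspCtrl and 13.4% to 14.6% in TranspExer, while *Jag1* and *Dll4* keep similar shares of the ligand pool.

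The spread within groups had a common pattern. TranspCtrl replicate 1 was the lowest TranspCtrl sample for 9 of the 10 members, the exception being *Jag2*, against 45.1% of all tested genes. The median coefficient of variation of the members was 19% in TranspCtrl and 9.73% in TranspExer, beside 13.1% and 7.16% over all tested genes. Without TranspCtrl replicate 1, the same 6 members were upregulated DEGs, with log2 fold changes of 1.12 for *Notch3*, 1.75 for *Notch4*, 1.43 for *Dll1*, 1.16 for *Dll4*, 1.17 for *Jag1* and 1.14 for *Hey1*.

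Of 70 further pathway genes, 62 were tested, of which 6 were upregulated DEGs and none a downregulated DEG by edgeR. At an adjusted p-value under 0.05, 21 were higher and 8 lower, where 16.6% of all tested genes were higher and 15.5% lower. At an unadjusted p-value under 0.05, 24 were higher and 8 lower, and DESeq2 likewise called 6 upregulated DEGs and no downregulated DEG. Their median log2 fold change was 0.21. Among 10 genes of receptor processing, 5 were higher and none lower at the adjusted threshold. *Psen2*, a catalytic subunit of γ-secretase, had 30.5, 32.9 and 33.6 CPM in TranspCtrl and 75.2, 72.5 and 75.8 CPM in TranspExer (1.20 ± 0.07 on the log2 scale, edgeR adjusted p = 4.99e-05). Of the ADAM proteases that cut the receptor first, *Adam10* rose by 0.40 ± 0.10 on the log2 scale (edgeR adjusted p = 0.0186, and up to 0.0699 with a TranspExer replicate left out), while *Adam17* did not pass the test (0.11 ± 0.08, adjusted p = 0.327).

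Of 5 receptor glycosylation genes, 1 was higher and 1 lower at the adjusted threshold. The Fringe glycosyltransferase gene *Lfng* rose by 0.39 ± 0.10 on the log2 scale (edgeR adjusted p = 0.0202, and up to 0.0702 with a TranspExer replicate left out), and *Mfng* did not pass the test (0.30 ± 0.12, adjusted p = 0.0968). Of 4 genes of ligand endocytosis, 2 were higher. The ubiquitin ligase gene *Neurl1b* had 1.76, 5.34 and 4.98 CPM in TranspCtrl and 12.5, 9.30 and 13.9 CPM in TranspExer (1.56 ± 0.35 on the log2 scale, edgeR adjusted p = 0.0124). Without TranspExer replicate 3, *Neurl1b* had an adjusted p-value of 0.059, the highest over the 12 other settings that tested for any difference, and it was 0.452 when the fold of 2 was tested in the model. Of 10 receptor modulators, 3 were higher and 1 lower, and *Egfl7*, which encodes a secreted endothelial protein that binds Notch, rose by 1.32 ± 0.15 on the log2 scale (edgeR adjusted p = 0.000668). *Egfl7* is overlapped on the opposite strand by *Agpat2*, with a mean count of 482.8 beside 398.8.

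Unlike the members, *Rbpj* fell. *Rbpj*, the gene of the DNA-binding partner of all 4 receptors, had 248, 314 and 293 CPM in TranspCtrl and 206, 214 and 203 CPM in TranspExer. Each TranspExer sample was below each TranspCtrl sample, and the log2 fold change was -0.45 ± 0.10 (edgeR adjusted p = 0.0121, at most 0.0482 over the 13 other settings that tested for any difference, and 1 in the test of a fold of 2). Of 9 genes of the transcription complex, 2 were higher and 1 lower, with a median log2 fold change of 0.17. Of 13 co-repressor genes, 4 were higher and 3 lower, with a median of 0.12. Of 4 genes of other ligand-like proteins, only *Dlk2* was tested, and it did not pass (log2 fold change 0.00, edgeR adjusted p = 0.994).

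Other target genes were divided. Of the 7 further *Hes* and *Hey* genes, 3 were tested and 2 were upregulated DEGs. *Heyl*, a target known from vascular smooth muscle, had 13.7, 22.3 and 20.4 CPM in TranspCtrl and 55.7, 56.6 and 60.5 CPM in TranspExer, and rose by 1.62 ± 0.16 on the log2 scale (edgeR adjusted p = 0.000389). It was the only one of the 62 genes that passed when the fold of 2 was tested in the model (adjusted p = 0.0263). *Hey2*, an arterial target, had 14, 22 and 21 counts in TranspCtrl and 39, 49 and 37 counts in TranspExer (1.26 ± 0.29 on the log2 scale, edgeR adjusted p = 0.0138). Without TranspExer replicate 2, *Hey2* had an adjusted p-value of 0.0593, the highest over the 12 other settings that tested for any difference, and it was 1 in the test of a fold of 2 in the model. *Hes5* had 2 to 6 counts per sample and was not tested. *Nrarp*, a target that feeds back on Notch and is known from sprouting vessels, had 2.69, 5.34 and 3.77 CPM in TranspCtrl and 10.3, 10.5 and 10.1 CPM in TranspExer (1.39 ± 0.22 on the log2 scale, edgeR adjusted p = 0.00289).

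Among other reported targets, 2 that are known from lymphocytes, picked after values were seen, were lower. *Il2ra*, the α-chain of the interleukin-2 receptor, had 11.1, 13.5 and 12.3 CPM in TranspCtrl and 5.91, 6.45 and 6.95 CPM in TranspExer (log2 fold change -0.93 ± 0.13, edgeR adjusted p = 0.00149). *Dtx1*, which encodes a Deltex regulator of Notch, had 37, 55 and 71 counts in TranspCtrl and 24, 29 and 26 counts in TranspExer (log2 fold change -0.91 ± 0.28, edgeR adjusted p = 0.0402), and it lost the adjusted threshold in 5 of the 6 fits that left out 1 sample, up to 0.124. Of the 8 other reported targets, 7 were tested, and 2 were higher and 2 lower at the adjusted threshold. The remaining tested ones, *Myc*, *Efnb2* and *Cdkn1a*, did not pass (log2 fold changes 0.41, 0.32 and 0.11, edgeR adjusted p = 0.125, 0.246 and 0.284).

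Markers of endothelial cells moved with the members. All 14 endothelial markers were higher at the adjusted threshold and 12 were upregulated DEGs, their summed level was 236 to 295 CPM in TranspCtrl and 795 to 865 CPM in TranspExer, and none was at 0 in any group. Of 10 pericyte and smooth muscle markers, 5 were upregulated DEGs, 7 were higher and 2 lower at the adjusted threshold, and their summed level, which *Acta2* and *Tagln* dominate, was 2700 to 3110 CPM in TranspCtrl and 2100 to 2270 CPM in TranspExer. The pericyte markers *Cspg4* and *Rgs5* rose by 2.82 ± 0.19 and 1.90 ± 0.15 on the log2 scale (edgeR adjusted p = 6.65e-05 and 0.000135). The smooth muscle markers *Tagln* and *Acta2* were the 2 that were lower at the adjusted threshold, with log2 fold changes of -0.98 ± 0.16 and -0.47 ± 0.09 (edgeR adjusted p = 0.00323 and 0.00818), whereas *Myh11*, also a smooth muscle marker, rose by 0.97 ± 0.19 (adjusted p = 0.00668), and the median of the 10 markers was 0.99. The part of these cell types in the results on Notch genes was not tested.

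The log2 CPM of each member minus the mean log2 CPM of the 14 endothelial markers was also taken in each sample, as a description. The mean of the markers was 3.37, 3.67 and 3.55 in TranspCtrl and 5.12, 5.17 and 5.19 in TranspExer, higher by 1.63. Relative to it, *Notch4* was -0.30, 0.00 and 0.04 in TranspCtrl and 0.09, 0.16 and 0.37 in TranspExer, a shift of 0.30, and it was the only member to shift upward. *Dll1* and *Jag1* shifted by -0.15 and -0.23 with overlapping groups. *Hey1*, *Notch3*, *Dll4* and *Hes1* shifted by -0.33, -0.36, -0.45 and -0.66 without overlap, and *Jag2*, *Notch1* and *Notch2* by -0.92, -1.17 and -1.32.

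**Figure D5:**
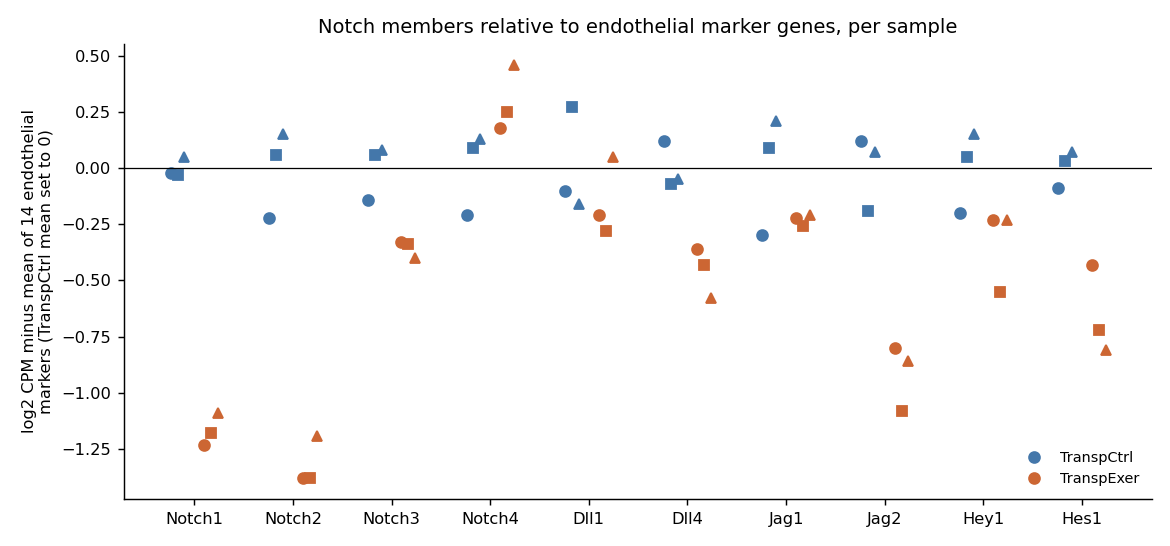
Points are the log2 CPM of each member minus the mean log2 CPM of 14 endothelial markers in the same sample, with the TranspCtrl mean of each gene set to 0 and circles, squares and triangles for replicates 1, 2 and 3. *Notch4* alone lies above its TranspCtrl points in every TranspExer sample, and *Notch1* and *Notch2* lie more than 1 log2 unit below.

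For each DEG among the members, the 2 genes with the most similar pattern were found by the root-mean-square difference of mean-centred log2 CPM over the 6 samples, among 9674 or 9675 tested genes with a mean of at least 10 CPM. *Notch4* was nearest to *Cdh5*, which encodes VE-cadherin of endothelial junctions, and *Adgrg1* (0.0851 and 0.0862 on the log2 scale). *Hey1* was nearest to *Vash1*, an endothelial angiogenesis inhibitor, and *Cd93*, an endothelial surface receptor (0.0705 and 0.0864). *Jag1* was nearest to *Jup*, a junction protein, and *Selp*, the P-selectin of platelets and endothelium (0.0292 and 0.0388). *Dll4* was nearest to *Tspan2* and the platelet chemokine gene *Ppbp* (0.0628 and 0.0645), *Notch3* to *Pitpnm2* and *Por* (0.0559 and 0.0701), and *Dll1* to *Olfml2a* and *Slco2b1* (0.124 and 0.141). The measure is dominated by the difference between the groups, which many genes share.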

How the data were processed

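MSCs cultured from the BM of OVX recipients were profiled by RNA-Seq in 3 TranspCtrl and 3 TranspExer samples, grouped by the sample titles. The authors deposited estimated counts (expected counts) per gene, not normalized, in 1 column per sample, with a gene length in bases. Between 10.1% and 12.2% of values per sample were not whole. The submitters' processing notes name the mm10 build, the labels a stranded mRNA kit, and the study's methods a TruSeq kit. The aligner, counting tool, annotation and test for DEGs are not given in the sources used here.

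Counts were rounded and tested with edgeR 4.0.16 in R 4.3.3 (filterByExpr, TMM, quasi-likelihood test, group as the only term). The thresholds for DEGs followed the study's methods. Standard errors and 95% intervals came from the fold change and F statistic. Log2 CPM had a prior count of 2. With 3 samples against 3, an exact permutation test of 1 gene could not reach 0.05, so p-values rest on the spread shared across genes. Alternatives were DESeq2 1.42.0, other scalings, filters and designs, unrounded counts and each sample left out. On simulated data with 200 of 15190 genes changed by 1.5 on the log2 scale, edgeR recovered 91%, and 2.15% of its calls were false. Far fewer genes changed there than in the data, all by the same size, so these rates do not carry over to the data. Gene positions came from GENCODE M21 (GRCm38), and 52073 of 56980 identifiers matched.

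Members, gene lists and alternatives were chosen with earlier results of these data known. Genes named were the members, pathway DEGs, 11 preset pathway genes, 1 of which is not reported here, and the genes most like each DEG member. *Il2ra*, *Dtx1*, *Dlk2*, *Myc*, *Efnb2*, *Cdkn1a*, *Cspg4*, *Rgs5*, *Acta2*, *Tagln* and *Myh11*, the motif CACGNG and the endothelial-marker difference were chosen after values were seen.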

Additional observations from a re-analysis of the deposited data

How the results depend on the processing

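Across the alternatives, none of 137 recomputed member fold changes changed direction, and 128 also kept their side of the DEG thresholds. When the fold of 2 was tested in the model, the DEGs fell to 1 among the members (*Notch4*), 1 among the other pathway genes (*Heyl*), and 138 higher and 274 lower among all genes, and *Notch3*, *Dll1*, *Dll4*, *Jag1* and *Hey1* had adjusted p-values of 0.235, 0.251, 0.237, 0.197 and 0.4. With at least 10 CPM required in 3 samples, 9818 genes were tested, and the DEGs *Dll1*, *Hey1*, *Neurl1b*, *Hey2* and *Nrarp* were no longer among them. The 4 member DEGs and 3 other pathway DEGs that were still tested remained DEGs, with 208 higher and 273 lower DEGs in all. *Il2ra* became a downregulated DEG with upper-quartile scaling and with library size only (1 gene each, against none). With each sample left out in turn, upregulated DEGs were 6 to 7 among members, 5 to 8 among other pathway genes and 443 to 579 among all genes. Downregulated DEGs were 0, 0 to 1 and 671 to 852, the 1 being *Dtx1* without TranspCtrl replicate 1 (log2 fold change -1.13) and *Il2ra* without TranspExer replicate 3 (-1). The 8 recomputed target differences moved by less than the spread between samples with prior counts of 0.5 and 5, with 1 change in overlap (*Hes1* minus ligands, -0.25 at 0.5).

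In the fit with a replicate block, 6 members and 6 other pathway genes were upregulated DEGs, and 519 genes were higher and 767 lower in all. Same-numbered samples had correlations of deviations of 0.02, 0.00 and 0.04, so the numbers were not taken as pairs. The block changed no call among the members except the adjusted p-value of *Jag2* (0.0748). The counts of *Dll1* and *Jag2*, at most 56 per sample, limit the precision of their fold changes.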
